A study of Mus musculus with 6 samples.

Results

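Acute phase proteins are secreted proteins whose amounts in blood and tissue change during inflammation, and several of them carry or withhold metals and lipids. The present set held 10 genes, out of the 55364 genes listed in the count tables, in TGFβ-exposed primary mouse lung fibroblasts (LFs). Of these, 6 encode secreted acute phase proteins (Saa3, Hp, Lrg1, Lbp, Lcn2 and Serpina3n), 2 the chains of the intracellular iron store ferritin (Fth1 and Ftl1) and 2 the metal-binding metallothioneins (Mt1 and Mt2). The ferritins and metallothioneins, which most cells express, were included as a contrast to the secreted proteins. The genes were chosen by name with their fold changes between the same 6 libraries already known, so their differences between the genotypes are described here with errors and intervals but without p-values.

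The libraries came from LFs of wt mice (3 libraries) and of their Tks5+/- littermates (3 libraries), a genotype which the sample labels call a TKS5 knockout. Tks5, encoded by Sh3pxd2a, is a scaffold protein of podosomes, the actin-rich protrusions with which cells degrade matrix. All LFs were isolated from C57Bl6/J mice of 8 to 10 weeks, grown as early-passage cultures, and moved to serum-free medium with 10 ng/ml TGFβ1 for 24 h. All 6 libraries came from treated cells. The Tks5+/- mice carried 1 allele without exon 11 of Sh3pxd2a in all tissues, made with a Cre recombinase under the CMV promoter, and no homozygous mice were born. The methods describe both a reporter allele and a conditional-derived allele (tm1b and tm1d) and do not state which of them the sequenced cells carried. The study describes its samples as biologically independent, while the animal behind each library is not given.

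Libraries were sequenced from the 3′ end of polyadenylated RNA (Quant-Seq), and held 1344507 to 2369882 counted reads each. Levels are given as CPM, that is counts relative to library sizes scaled by the TMM method, and differences as log2 fold changes of the libraries labelled Tks5+/- against wt from edgeR, with standard errors (SE) and 95% intervals. Called genes are those with an adjusted p below 0.05 and a fold change of 1.2 or more. For Sh3pxd2a itself, 205, 190 and 284 reads were counted in the wt libraries and 238, 258 and 260 in those labelled Tks5+/-. This is a log2 fold change of 0.29 (95% interval -0.13 to 0.71), so that no lower level was detected in the libraries labelled Tks5+/-. Over 18 alternative ways of processing, the value for Sh3pxd2a ranged from -0.13 to 1.18. It was called, as higher, only with correction for transcript length, with or without GC content. Exon 11 is a different exon in each of the 2 annotated coding transcripts that have one (118 and 335 bases), and which of these the allele lacks was not established. The transcripts continue for 9268 and 2154 bases after it, so that reads from the 3′ end do not read either exon itself. Whether the allele changes the number of such reads was not tested. Of the 10 fibroblast markers, 10 had counts in both genotypes, with a summed level of 5147 to 6511 CPM in wt and 5989 to 9207 CPM in the libraries labelled Tks5+/-. Single markers went both ways, with 4 called higher, 2 lower and 4 neither. Log2 fold changes were 1.93 for Thy1 and 1.27 for Vim, against -1.55 for Fn1 and -1 for Pdgfrb. Library wt replicate 3 stood apart from the others. The summed level of 12 macrophage and leukocyte markers was 405 and 350.5 CPM in wt replicates 1 and 2, 2274 CPM in wt replicate 3, and 132 to 149 CPM in the libraries labelled Tks5+/-, where Ptprc, Adgre1 and Aif1 were at 0. The genotypes also differed in Ddx3y, a Y-linked RNA helicase (85.6 ± 8.07 against 11.9 ± 1.62 CPM, SD, n = 3 each, edgeR adjusted p = 1.45e-08). They differed as well in Nnt, which carries a deletion in C57BL/6J mice (39.2 ± 8.7 against 13.3 ± 5.57 CPM, SD, n = 3 each, edgeR adjusted p = 0.000238). Eif2s3y, another Y-linked gene, had a log2 fold change of -0.23 (edgeR adjusted p = 0.688). Kdm5d, also Y-linked, was at 2.65 ± 1.9 and 2.45 ± 1.96 CPM (SD, n = 3 each, too low to be tested). Uty, Y-linked too, was at 6.38 ± 3.3 and 2.71 ± 0.831 CPM (SD, n = 3 each, also not tested). Xist, which is transcribed from the inactive X chromosome of female cells, had 0 counts in all 6 libraries. Since reads were counted over 3′ UTRs, a count of 0 does not show that an RNA was absent. An effect of strain background, or of the sex of the animals, cannot be told apart from that of the genotype in these libraries.

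In the liver, acute phase genes are switched on by cytokines such as interleukin 6 and interleukin 1 through the STAT, C/EBP and NF-κB families of transcription factors, and fibroblasts can express some of them. Metallothionein genes are switched on by zinc and other metals through the factor MTF1, which binds metal response elements, while ferritin is regulated largely at translation by iron regulatory proteins. In the RefSeq promoter table (GRCm38.p6), 8 of the 10 genes had an entry, and Hp and Lbp had none. The 250 bases before the start are shown for 3 of the genes that were lower in the libraries labelled Tks5+/- and for both metallothioneins, since these sets had fold changes of opposite sign in the main comparison. Capitals mark matches to any of 5 motifs, searched on both strands: NF-κB (GGNNTTTCC), C/EBP (TTNNGCAA), STAT (TTCNNNGAA), the metal response element (TGCACNC or TGCGCNC) and the antioxidant response element (TGACNNNGC), where N is any base.
Saa3, chr7:46715677-46715926, minus strand: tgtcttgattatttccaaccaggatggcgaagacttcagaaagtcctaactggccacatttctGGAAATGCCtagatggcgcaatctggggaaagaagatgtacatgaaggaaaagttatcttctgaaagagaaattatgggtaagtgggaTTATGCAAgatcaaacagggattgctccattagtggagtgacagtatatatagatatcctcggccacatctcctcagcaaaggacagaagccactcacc
Lrg1, chr17:56121947-56122196, minus strand: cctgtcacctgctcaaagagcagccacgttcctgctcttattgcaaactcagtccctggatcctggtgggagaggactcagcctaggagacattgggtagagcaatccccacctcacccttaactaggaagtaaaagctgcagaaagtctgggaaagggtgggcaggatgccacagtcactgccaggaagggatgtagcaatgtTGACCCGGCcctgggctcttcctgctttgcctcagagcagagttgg
Serpina3n, chr12:104406458-104406707, plus strand: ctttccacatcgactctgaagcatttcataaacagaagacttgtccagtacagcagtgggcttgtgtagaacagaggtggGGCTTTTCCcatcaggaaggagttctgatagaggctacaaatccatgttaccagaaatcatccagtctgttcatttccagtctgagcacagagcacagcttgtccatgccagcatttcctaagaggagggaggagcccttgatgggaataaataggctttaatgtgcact
Mt1, chr8:94178839-94179088, plus strand: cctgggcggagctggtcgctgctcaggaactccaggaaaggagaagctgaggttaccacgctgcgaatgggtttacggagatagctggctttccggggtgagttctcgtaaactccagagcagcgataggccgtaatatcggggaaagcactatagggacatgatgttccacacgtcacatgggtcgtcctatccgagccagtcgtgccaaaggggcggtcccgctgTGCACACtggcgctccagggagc
Mt2, chr8:94172368-94172617, plus strand: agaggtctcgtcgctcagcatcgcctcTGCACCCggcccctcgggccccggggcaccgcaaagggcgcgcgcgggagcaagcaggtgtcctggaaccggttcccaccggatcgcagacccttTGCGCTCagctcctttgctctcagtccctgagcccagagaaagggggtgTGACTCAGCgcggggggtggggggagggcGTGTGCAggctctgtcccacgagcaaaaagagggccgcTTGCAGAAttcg

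The window of Saa3 held 1 C/EBP match, 99 to 92 bases before the start, and 1 NF-κB match on the opposite strand. That of Serpina3n held 1 NF-κB match and that of Lrg1 held 1 antioxidant response element. No printed matches overlapped each other. The window of Mt1 held 1 metal response element and that of Mt2 held 3, besides 1 C/EBP match and 1 antioxidant response element. Among the windows not shown, Lcn2 had 1 C/EBP match and 1 of the 2 Fth1 windows had 2, whereas Ftl1 and the other Fth1 window had no match to the 5 motifs. None of the entries of these genes had a STAT match. Over all 32851 windows in the table, 4.93% held an NF-κB match, 9.56% a C/EBP match, 7.02% a STAT match, 21.4% a metal response element and 10.2% an antioxidant response element. The matches describe the letters in these windows, and binding was not measured. Each window ends at the start of its RefSeq entry, and sequence beyond it or at other starts was not searched. The matches are therefore not a count of all elements of a promoter.

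Of the 10 genes, 9 had enough counts to pass the expression filter and Lcn2 did not. Hp, Lrg1, Lbp and Serpina3n passed it through their wt counts, and did not reach 10 counts in every library labelled Tks5+/-. Genes that pass in this way are high in wt by selection, so their calls as lower are no independent result. The 5 tested secreted acute phase genes and Fth1 were called lower in the libraries labelled Tks5+/- (6 genes), and Ftl1, Mt1 and Mt2 were called higher (3 genes), although Mt1 turned to -0.06 in the authors' normalized counts. The genes were selected on this contrast, and in it 22.1% of the 10346 genes tested were called lower, 22.8% higher and 44.9% in either direction. With scaling by library totals the split over all genes was 3944 lower and 1362 higher, against 2286 and 2356. The median log2 fold change of the 9 genes was -2.78, and that of all genes tested was -0.046. With at least 10 counts required in every library, 5 of the genes were left, and their median was 0.56. In 8 of the 10 genes the 3 wt values and the 3 values labelled Tks5+/- did not overlap, as in 53.8% of all genes tested. The exceptions were Lcn2 and Ftl1.

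**Figure D1:**
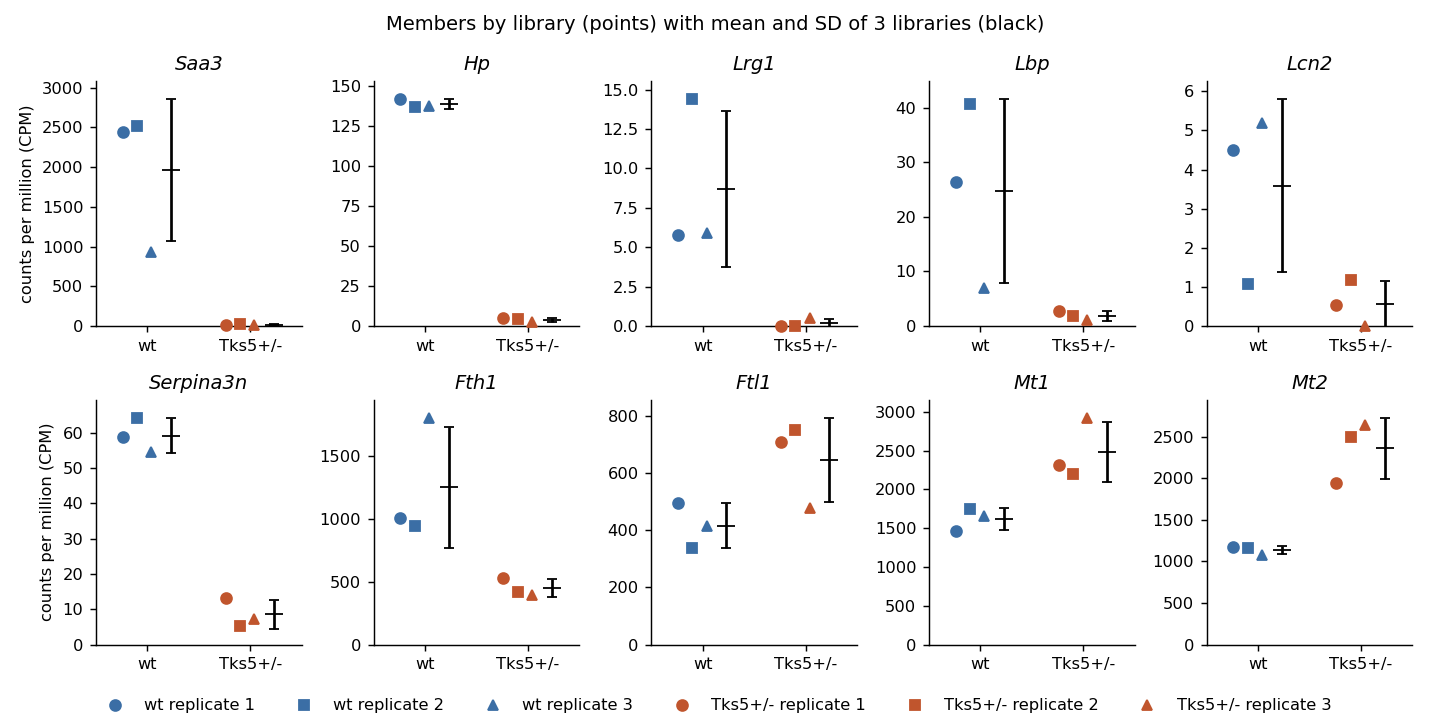
Level of each of the 10 genes in CPM (vertical axes, which start at 0 and differ between panels) in wt (blue) and Tks5+/- (orange) libraries, with marker shapes for replicates 1, 2 and 3 and, in black, the mean and SD of 3 libraries. The 3 wt values of Saa3, 933 to 2512 CPM, all lie above the values of 13.3 to 24 CPM labelled Tks5+/-, whereas on this scale Mt1 and Mt2 lie higher in the latter (not so for Mt1 in the authors' normalized counts) and Ftl1 and Lcn2 overlap.

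Saa3 (ENSMUSG00000040026, chromosome 7 of GRCm38, 46711998 to 46715700, minus strand) encodes serum amyloid A3, a lipid-binding acute phase protein made mainly outside the liver. Its level was 2442, 2512 and 933 CPM in wt replicates 1, 2 and 3 and 18.7, 24 and 13.3 CPM in those labelled Tks5+/-. Thus wt replicate 3 was the lowest wt library, at 0.377 times the mean of the other wt libraries, yet it still lay far above every library labelled Tks5+/-. The means were 1962 ± 892 and 18.7 ± 5.34 CPM (SD, n = 3 each), with a log2 fold change of -6.72 (SE 0.42, 95% interval -7.63 to -5.81). This is 105-fold lower, and 1 of the other genes tested had a lower fold change. Saa3 held 0.106% to 0.285% of all counts in wt libraries and 0.00112% to 0.00194% in those labelled Tks5+/-.

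Hp (ENSMUSG00000031722, chromosome 8, 109575128 to 109579172, minus strand) encodes haptoglobin, which binds free haemoglobin and so limits the loss of its iron. The wt libraries held 142, 137 and 138 CPM and those labelled Tks5+/- 4.94, 4.1 and 2.56 CPM. The wt values were close together, wt replicate 3 included, and the genotypes were far apart. The log2 fold change was -5.15 (SE 0.29, 95% interval -5.75 to -4.55), or 35.6-fold lower. Raw counts labelled Tks5+/- were 9, 7 and 5, so the lower level rests on few reads.

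Lrg1 (ENSMUSG00000037095, chromosome 17, 56119678 to 56122001, minus strand) encodes a leucine-rich glycoprotein that binds the TGFβ accessory receptor endoglin. It had 9, 27 and 16 counts in wt libraries and 0, 0 and 1 counts in those labelled Tks5+/-, which corresponds to 5.79, 14.4 and 5.93 CPM against 0, 0 and 0.512 CPM. All wt libraries held reads, and those labelled Tks5+/- held 1 read between them. The ratio of the summed counts per scaled library size was 46.6, with an exact 95% interval of 8 to 1876 that covers counting error only. The fitted log2 fold change of -5.14 (SE 0.85, 95% interval -6.91 to -3.38) depends on how the fit treats counts near 0, and was -7.06 without replicate 3 labelled Tks5+/-, which holds that read. A count of 0 in a library still allows up to 3 counts.

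Lbp (ENSMUSG00000016024, chromosome 2, 158306493 to 158332852, plus strand) encodes the lipopolysaccharide-binding protein, which hands bacterial lipopolysaccharide to CD14. Its level was 26.4, 40.7 and 7.04 CPM in wt libraries and 2.74, 1.76 and 1.02 CPM in those labelled Tks5+/-. As for Saa3, wt replicate 3 was the lowest wt library, at 0.21 times the mean of the other wt libraries, and the genotypes did not overlap. The log2 fold change was -3.68 (SE 0.67, 95% interval -5.12 to -2.24). It was -4.16 without wt replicate 3 and -3.09 without wt replicate 2. With limma-voom the value of -3.2 did not pass the threshold.

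Serpina3n (ENSMUSG00000021091, chromosome 12, 104406729 to 104414329, plus strand) encodes an inhibitor of serine proteases such as granzyme B and neutrophil elastase. The wt libraries held 58.6, 64.2 and 54.5 CPM and those labelled Tks5+/- 13.2, 5.27 and 7.16 CPM. The spread was small in wt LFs (59.1 ± 4.88 CPM, SD, n = 3), and the other group lay below it (8.53 ± 4.13 CPM, SD, n = 3). The log2 fold change was -2.78 (SE 0.3, 95% interval -3.39 to -2.16), or 6.85-fold lower. Serpina3n belongs to a cluster of related genes, of which Serpina3g was the 1 tested relative and is described with the other acute phase genes.

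Lcn2 (ENSMUSG00000026822, chromosome 2, 32384633 to 32388252, minus strand) encodes lipocalin 2, which binds bacterial siderophores and so withholds iron. It had 7, 2 and 14 counts in wt libraries and 1, 2 and 0 counts in those labelled Tks5+/-, and was not tested. The values overlapped, since wt replicate 2 (1.07 CPM) lay below replicate 2 labelled Tks5+/- (1.17 CPM). The ratio of the summed counts per scaled library size was 6.87 (exact 95% interval 2.08 to 35.8, counting error only), and 4.81 without wt replicate 3 (1.2 to 27.6). Fitted without a filter on low counts, Lcn2 had a log2 fold change of -2.6, past the call threshold with edgeR, whereas the value of -2.66 in DESeq2 was not. With 1 library left out it passed the filter in 4 fits, and was called in 2 of them (-3.02 without wt replicate 2 and -3.48 without replicate 2 labelled Tks5+/-).

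Summed over the 6 secreted genes, the level was 2679, 2769.7 and 1143 CPM in wt libraries and 40.1, 36.3 and 24.6 CPM in those labelled Tks5+/-. Most of each wt sum was Saa3. Within the wt group the genes did not share 1 order. Wt replicate 3 was lowest for Saa3, Lbp and Serpina3n and highest for Lcn2, and wt replicate 2 was highest for Saa3, Lrg1, Lbp and Serpina3n. Neutrophils and hepatocytes are well-known sources of Lcn2, Lrg1 and Hp. Of 10 neutrophil markers, 4 had no count in any library, namely S100a9, Elane, Csf3r and Retnlg, and the summed level was 18.7 to 51.9 CPM in wt and 2.34 to 3.58 CPM in those labelled Tks5+/-. S100a8 had 28, 38 and 133 counts in wt libraries and 4, 1 and 6 in the others. Of 6 hepatocyte markers, 5 had no count in any library and the sum was 0 CPM in all wt libraries. Lung epithelium and endothelium can express Lcn2 and Lrg1, too. The summed level of 10 airway and alveolar epithelial markers was 14.4 to 34.9 CPM in wt and 0 to 0.512 CPM in those labelled Tks5+/-, with 6 of the 10 at 0 in every library. The sum of 6 endothelial markers was 106 to 127 CPM in wt and 45.6 to 59.9 CPM in the others, and that of 6 mesothelial markers was 27.8 to 38.6 and 5.12 to 14.3 CPM. Among the endothelial markers, Pecam1 and Tek were at 0 in every library labelled Tks5+/-. Kdr had 17, 17 and 28 counts in wt libraries and 0, 0 and 2 in the others. Most of the wt sum was Egfl7 (65.7 against 20.7 CPM), while Ramp2 went the other way (25.8 against 31.7 CPM). Reads were counted over 3′ UTRs, where even the reference gene Gapdh held only 22, 17 and 50 counts in wt libraries. A count of 0 therefore does not show that a marker was absent. The part of such cells in the differences was not tested. Bulk RNA does not tell apart fewer expressing cells from less RNA per cell.

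Ferritin stores iron in a shell of heavy (Fth1) and light (Ftl1) chains. Fth1 (ENSMUSG00000024661, chromosome 19, 9980598 to 9985098, plus strand), whose product oxidises iron for storage, was at 1009, 939 and 1803 CPM in wt libraries. In the libraries labelled Tks5+/- it was at 527, 419.6 and 393 CPM. All wt values lay above the others, and wt replicate 3 was 1.85 times the mean of the other wt libraries. The log2 fold change was -1.49 (SE 0.24, 95% interval -1.99 to -0.98), or 2.8-fold lower. It was -1.13 without wt replicate 3, the library with the most macrophage marker RNA, and remained past the call threshold. The part of these cells in the difference that remains was not tested, and among the libraries left the macrophage marker sum was also higher in wt (405 and 350.5 CPM) than in those labelled Tks5+/- (132 to 149 CPM).

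Ftl1 (ENSMUSG00000050708, chromosome 7, 45457944 to 45459884, minus strand) was at 494, 338 and 416 CPM in wt libraries and at 707, 751 and 478 CPM in those labelled Tks5+/-. The groups overlapped, since replicate 3 labelled Tks5+/- lay below wt replicate 1. The log2 fold change was 0.63 (SE 0.22, 95% interval 0.18 to 1.09), and no longer past the threshold without wt replicate 2 (0.5) or without replicate 2 labelled Tks5+/- (0.54). The transcript of Ftl1 is nearly identical to those of 3 annotated copies, so that short reads may be divided among them. Identity with Ftl1 was 98.7% over the whole of Ftl2-ps, 99.6% over 910 bases of Ftl1-ps1 and 97.8% over the whole of Ftl1-ps2. Ftl2-ps had 149, 143 and 372 CPM in wt libraries and 124, 128 and 108 CPM in those labelled Tks5+/-, with wt replicate 3 at 2.54 times the other wt libraries, as in the plot of ferritin genes. Its log2 fold change was -0.89 (edgeR adjusted p = 0.0349), and -0.29 without wt replicate 3 (edgeR adjusted p = 0.325), so that the call was lost. It was also lost without any single library labelled Tks5+/-. Ftl1-ps2 was at 12.9, 17.7 and 14.8 against 4.39, 5.85 and 11.8 CPM (log2 fold change -1.03, edgeR adjusted p = 0.0332), a call that was lost without any of 4 single libraries, wt replicates 2 and 3 and replicates 1 and 2 labelled Tks5+/-. Ftl1-ps1 had a log2 fold change of -0.09 (edgeR adjusted p = 0.836). With the reads of the 3 copies added, Ftl1 was at 674, 513 and 821 CPM in wt libraries and 847, 902 and 617 CPM in those labelled Tks5+/-. The groups then overlapped more widely and the log2 fold change was 0.24, no longer called. Counts close to those of Ftl1, 519 to 1099 per library, were also listed under Gm22133, a miRNA gene inside Ftl1 on the same strand. Copies of Fth1 held few reads, with 0 to 10 counts per library for Fth-ps2 and 0 for the Fthl17 genes.

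**Figure D2:**
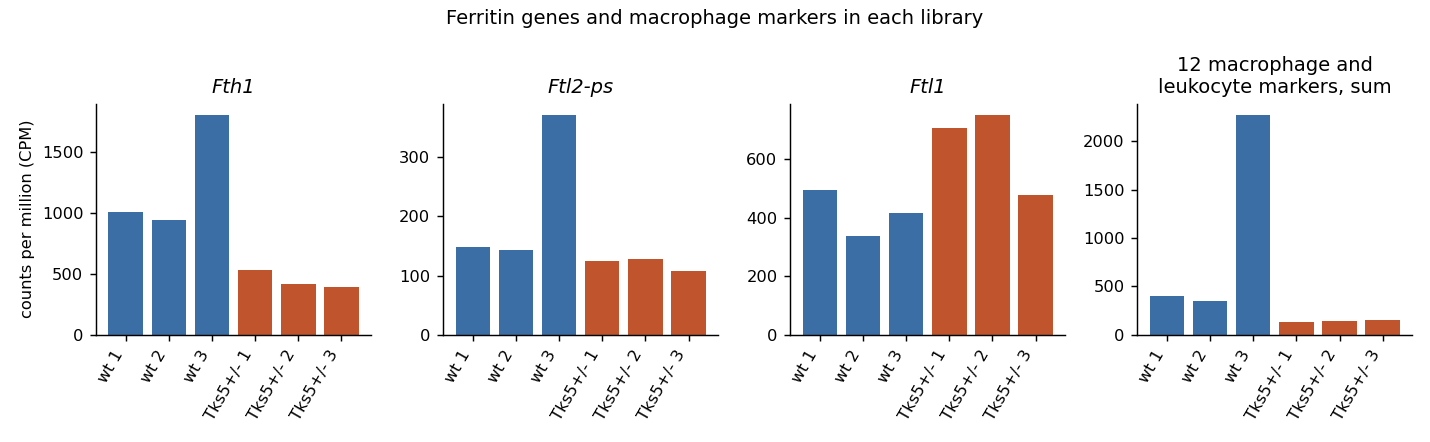
Bars give the level in CPM (vertical axes from 0, different in each panel) of Fth1, Ftl2-ps and Ftl1 and the summed level of 12 macrophage and leukocyte markers in each of 3 wt (blue) and 3 Tks5+/- (orange) libraries. Wt replicate 3 is the highest bar for Fth1 (1803 CPM), Ftl2-ps (372 CPM) and the markers (2274 CPM), but not for Ftl1 (416 CPM).

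Metallothioneins are small cysteine-rich proteins that bind zinc and copper. Mt1 (ENSMUSG00000031765, chromosome 8, 94179082 to 94180327, plus strand) was at 1466, 1740.2 and 1651 CPM in wt libraries and 2312, 2200.2 and 2923 CPM in those labelled Tks5+/-. Mt2 (ENSMUSG00000031762, chromosome 8, 94172664 to 94173568, plus strand), its neighbour on the same strand, was at 1168, 1166 and 1080.1 CPM in wt and 1942, 2491 and 2643 CPM in the others. For both genes all libraries labelled Tks5+/- were above all wt libraries, and wt replicate 3 was unremarkable (1.03 and 0.925 times the other wt libraries). The log2 fold change was 0.61 for Mt1 (SE 0.21, 95% interval 0.19 to 1.04). Mt1 lost its call without wt replicate 1 (0.55), wt replicate 2 (0.67) or replicate 3 labelled Tks5+/- (0.51). For Mt2 the log2 fold change was 1.05 (SE 0.21, 95% interval 0.62 to 1.48). These values lie within the range of genes often taken as stable references. Of 15 such genes 9 were called higher and 1 lower, with a median log2 fold change of 0.71. Ppia (1.73, edgeR adjusted p = 1.55e-06), Pgk1 (1.64, edgeR adjusted p = 2e-06) and Rpl13a (1.47, edgeR adjusted p = 1.2e-05) rose, as they did in all 18 alternatives, and Actb was at -0.4 (edgeR adjusted p = 0.129). Mt1 and Ftl1 were thus below, and Mt2 above, the median of the reference genes.

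The 3 higher values also moved with correction for transcript length. Over 10339 tested genes whose transcripts were annotated, fold change and length of the longest transcript had a Spearman's rho of -0.397, a description across genes, which are not replicates. The longest transcripts of Ftl1, Mt1 and Mt2 have 968, 1085 and 511 bases. After correction of each library for length, the log2 fold changes were 0.08 for Ftl1, 0.11 for Mt1 and 0.33 for Mt2, and none was called. In the authors' normalized counts they were 0.24, -0.06 and 0.38, again with none called, and with scaling by library totals Mt2 alone was called (0.62). Scaling by library totals also lowered the median of all genes from -0.046 to -0.465. Reads came from the 3′ end, whereas the length correction used the longest annotated transcript. The correction may therefore also remove differences in the RNA itself. Whether length caused the higher values was not tested. In each of the 17 or 18 other ways of processing that gave them a value, the log2 fold changes of Saa3, Hp, Lrg1, Lbp, Serpina3n and Fth1 remained below 0, and each called them lower with the exception of limma-voom for Lbp. The lower genes ranged from -7.15 to -6.48 for Saa3, from -5.57 to -4.88 for Hp and from -2.15 to -1.13 for Fth1.

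**Figure D3:**
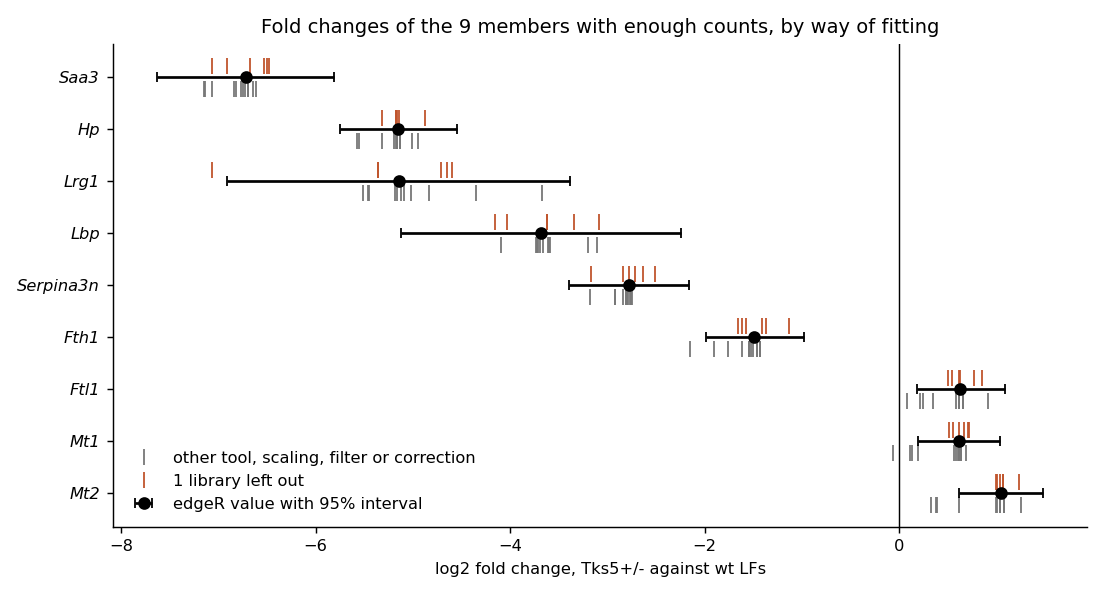
Log2 fold change of the libraries labelled Tks5+/- against wt (horizontal axis) for the 9 tested genes, as the edgeR value with its 95% interval (black), under other tools, scalings, filters and corrections (grey ticks) and with 1 library left out (orange ticks). Saa3 stays between -7.15 and -6.48, whereas the grey ticks of Ftl1, Mt1 and Mt2 reach 0.08, -0.06 and 0.33.

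Genes related to the 10 by function were taken as lists, chosen with earlier results of these data known. Their calls stand beside shares of 22.1% lower and 22.8% higher over all genes tested. Of 38 other acute phase genes, most of them liver products, 21 had no count in any library and 4 were tested, of which 3 were called lower and none higher, with a median log2 fold change of -1.72. Cp encodes ceruloplasmin, a copper-carrying oxidase that prepares iron for binding to transferrin. It was at 31.8 ± 4.17 CPM in wt and 3.32 ± 0.769 CPM in those labelled Tks5+/- (SD, n = 3 each), a log2 fold change of -3.24 (edgeR adjusted p = 2.76e-07). Cp had 6, 7 and 5 counts in the latter, and passed the expression filter through its wt counts. The protease inhibitor genes Serping1 (357 ± 61.6 against 116 ± 34.3 CPM, SD, n = 3 each, log2 fold change -1.63, edgeR adjusted p = 6.82e-06) and Serpina3g (28.9 ± 2.97 against 8.23 ± 0.551 CPM, SD, n = 3 each, -1.81, edgeR adjusted p = 4.29e-05) fell as well. Ptx3, the long pentraxin, was at 39.2 ± 9.53 and 28.1 ± 5.18 CPM (SD, n = 3 each) and was not called (-0.47, edgeR adjusted p = 0.146).

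Among genes outside the set, those whose pattern over the 6 libraries was most like that of Saa3, by the root mean square difference of centred log2 CPM, were C3 (difference 0.8), Cfb (1.13) and Gm20547 (1.15). C3 and Cfb encode complement factors of the alternative pathway. C3 had 418, 547 and 600 counts in wt libraries and 9, 11 and 13 in those labelled Tks5+/-, and Cfb had 1081, 1262 and 940 against 47, 38 and 54. Gm20547 overlaps Cfb on the same strand over 6107 of the 6145 bases of Cfb, so reads from the shared part cannot be told apart. Within the set itself, Hp was nearest to Saa3 (0.97), followed by Lbp (1.85) and Serpina3n (2), while Fth1 (2.68), Ftl1 (3.62), Mt1 (3.63) and Mt2 (3.83) were farther. Lrg1 and Lcn2 had too few counts to be placed. The measure takes in the difference between the genotypes, with which the set was chosen. Its order therefore largely restates the fold changes and is no separate result.

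Among 41 inducers and signalling genes of the acute phase response, 33 were tested, 9 were called lower and 7 higher, and the median log2 fold change was -0.27. Il17ra, a receptor chain for interleukin 17, fell from 252 ± 12.4 to 56 ± 6.64 CPM (SD, n = 3 each), with a log2 fold change of -2.17 (edgeR adjusted p = 7.07e-08). The cytokine gene Il11 fell by 1.49 on the log2 scale (199.6 ± 54.7 to 71.1 ± 20 CPM, SD, n = 3 each, edgeR adjusted p = 3.43e-05). Cebpd, a C/EBP factor of the acute phase response, rose from 53.1 ± 4.79 to 126 ± 30.1 CPM (SD, n = 3 each, log2 fold change 1.25, edgeR adjusted p = 9.71e-05). Other C/EBP genes did not rise, with Cebpa at -1.66 (edgeR adjusted p = 0.00233) and Cebpb at 0.15 (edgeR adjusted p = 0.622). Cebpa had 7, 15 and 6 counts in the libraries labelled Tks5+/-, and passed the expression filter through its wt counts. Il11ra1, the receptor chain for interleukin 11, was at -0.11 (edgeR adjusted p = 0.706). Without wt replicate 3 the calls in this list were 8 lower and 4 higher, and 4 were higher also without wt replicate 2 or without replicate 3 labelled Tks5+/-.

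Of 24 genes for receptors and partners of the 10 proteins, 13 were tested, 5 were called lower and 1 higher, and the median was -0.64. Lrp2, or megalin, an uptake receptor for lipocalin 2 and metallothioneins, had 20, 16 and 31 counts in wt libraries and 0, 1 and 0 in those labelled Tks5+/- (edgeR adjusted p = 5.15e-06). Lrp2 thus passed the expression filter through its wt counts. The ratio of its summed counts per scaled library size was 60.1 (exact 95% interval 10.4 to 2407, counting error only). Lrp1, which takes up haem bound to haemopexin and proteases bound to their inhibitors, fell from 124 ± 11.7 to 45.4 ± 13.6 CPM (SD, n = 3 each, -1.45, edgeR adjusted p = 3.19e-05). With length and GC correction its value was -0.34 (edgeR adjusted p = 0.237) and the call was lost. Tgfbr1, the type I TGFβ receptor, fell from 25.4 ± 1.86 to 6.1 ± 1.87 CPM (SD, n = 3 each, -2.05, edgeR adjusted p = 3.64e-05). Tgfbr1 had 10, 14 and 9 counts in the libraries labelled Tks5+/-, and it too passed the expression filter through its wt counts. Cd44, a surface receptor for hyaluronan, was at -0.26 (edgeR adjusted p = 0.307). Without replicate 1 labelled Tks5+/- 8 genes of the list were called lower.

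Of 36 iron handling genes, 35 of them matched by symbol, 24 were tested, and here the calls were divided, with 5 lower, 4 higher and a median of -0.03. Mcoln1, a lysosomal channel that releases iron and calcium, fell from 39.2 ± 8.28 to 7.95 ± 2.46 CPM (SD, n = 3 each, log2 fold change -2.3, edgeR adjusted p = 3.97e-06), and Trf, transferrin, fell from 49.3 ± 16.9 to 12.6 ± 4.55 CPM (SD, n = 3 each, -1.97, edgeR adjusted p = 2.46e-05). Steap3, the endosomal ferrireductase, rose from 23.5 ± 1.75 to 74.9 ± 21.1 CPM (SD, n = 3 each, 1.67, edgeR adjusted p = 1.14e-05). Pcbp1, an iron chaperone that delivers iron to ferritin, was at 430.5 ± 60.6 and 654 ± 57.4 CPM (SD, n = 3 each, 0.6, edgeR adjusted p = 0.0183), a call kept under 13 of 18 alternatives and lost without wt replicate 1 or without replicate 3 labelled Tks5+/-. Slc48a1, a haem transporter, was at -0.39 (edgeR adjusted p = 0.131). Without replicate 2 labelled Tks5+/- 3 genes of the list were called lower.

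The 34 zinc and metallothionein genes gave 23 tested genes, 5 lower and 5 higher, with a median of -0.35. Of the 9 tested zinc transporter genes of the Slc39 family, 1 was called higher, 3 lower and 5 neither. Slc39a1 rose from 97.9 ± 29 to 282 ± 67.5 CPM (SD, n = 3 each, log2 fold change 1.54, edgeR adjusted p = 1.97e-05), while Slc39a5 (-2.82, edgeR adjusted p = 8.6e-06) and Slc39a7 (-1.07, edgeR adjusted p = 0.000178) fell. Slc39a5 had 4, 3 and 9 counts in the libraries labelled Tks5+/-, and passed the expression filter through its wt counts. Slc30a7, which loads zinc into the secretory pathway, rose by 1.37 on the log2 scale (edgeR adjusted p = 5.22e-05). Sod1, the copper-zinc superoxide dismutase, was at 1350.3 ± 405 and 1471 ± 236 CPM (SD, n = 3 each, 0.12, edgeR adjusted p = 0.687). Without replicate 2 labelled Tks5+/- 3 genes of this list were called lower.

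**Figure D4:**
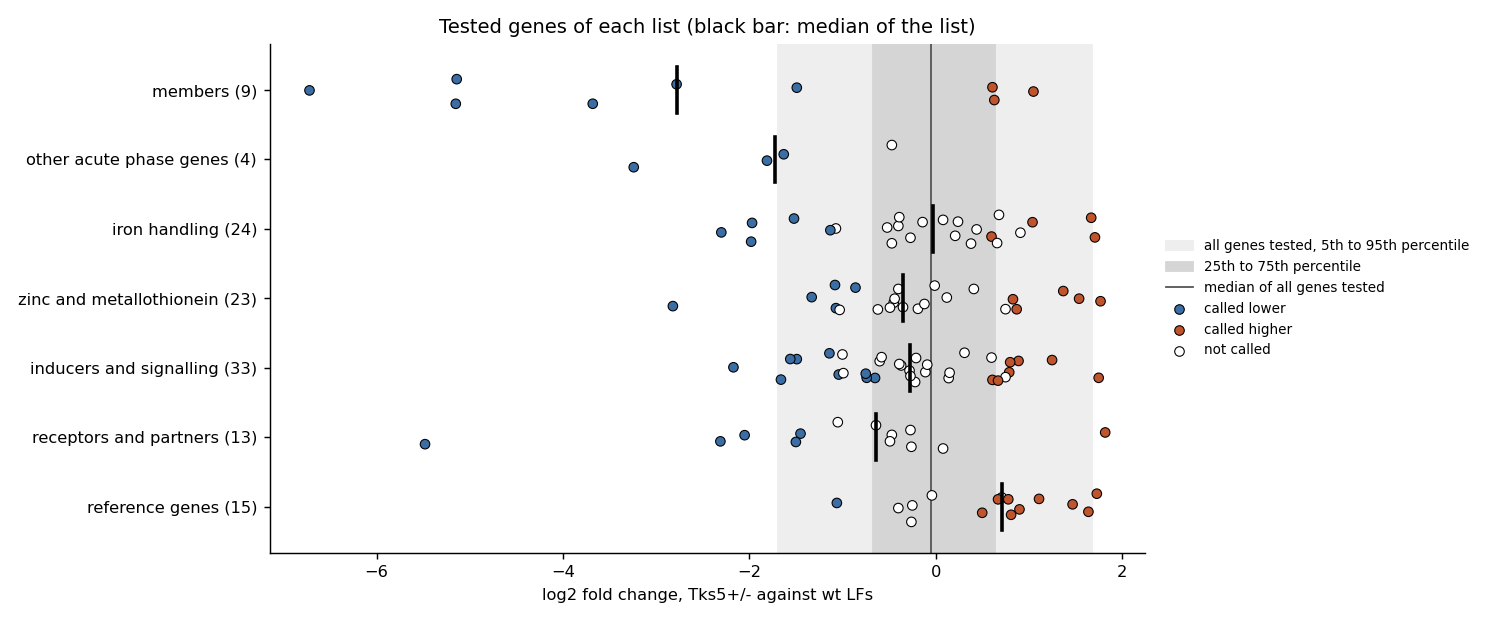
Log2 fold change of the libraries labelled Tks5+/- against wt (horizontal axis) of each tested gene (points, filled where called) by list, with list medians as black bars and percentiles of all tested genes as grey bands. The medians are -2.78 for the 9 tested genes of the set, -1.72 for other acute phase genes, -0.03 for iron handling and 0.71 for reference genes. With at least 10 counts required in every library, the median of the set was 0.56 over 5 genes.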

How the data were processed

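RNA of 6 libraries, 3 of wt and 3 of Tks5+/- LFs exposed to TGFβ, was measured by Quant-Seq. Reads were trimmed by the authors (Trim Galore) and mapped to GRCm38 by HISAT2, with Bowtie2 for reads left unmapped. MetaseqR2 counted them over 3′ UTRs, and the counts were added up for each gene. Raw counts were deposited for each library. The deposited normalized counts, made by the authors with EDASeq and rounded, were used as a score in 1 alternative, and all 6 columns hold the same sorted values. Strand use in counting is not given in the sources used here. Per-sample columns were all mapped to samples by their titles.

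Of 55364 genes, 55104 were matched to symbols of GENCODE release M21 (GRCm38), and 21720 had a count. Genes kept by filterByExpr were scaled by TMM and tested with edgeR 4.0.16 (robust quasi-likelihood F test, R 4.3.3), with Benjamini-Hochberg adjustment over the 10346 genes tested. CPM were computed on the scaled library sizes. Alternatives were DESeq2 1.42.0, limma-voom (limma 3.58.1), RLE, upper-quartile and library total scaling, limma on the normalized counts (log2 of value + 1), filters on low counts (none, or at least 10 counts in every library), corrections for transcript length and GC content (loess with a span of 0.5 on log2 CPM with a prior count of 2), a block for replicate number, and the omission of each library in turn. Adding the reads of Ftl1 copies was chosen after seeing the data. Count ratios carry exact (Clopper-Pearson) 95% intervals, which like the floor of 3 counts cover counting error only. Promoter windows are from RefSeq. Motifs were searched with Python 3.11.15.

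The 10 genes and all lists were chosen with earlier results of these data known. Named beside the 10 were Sh3pxd2a, and in each list the 3 genes with the smallest adjusted p and the 2 with the highest mean CPM. The ferritin copies, genes overlapping the 10, and the 3 genes of at least 10 counts on average nearest to Saa3 were named too. Cebpa and Cebpb were added beside Cebpd. Other cell types were read from marker lists as sums.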

Additional observations from a re-analysis of the deposited data

How the results depend on the processing

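All genes called ranged from 3705 to 5306 over the alternatives, against 4642. Scaling by library totals called 3944 genes lower and 1362 higher, against 2286 and 2356. It left 1 of the 10 genes higher, moved their median to -3.18, and gave 11 lower iron handling genes, 11 lower and 3 higher zinc genes, 15 lower and 2 higher signalling genes, and 9 lower receptor and partner genes. None of the 10 was higher (0) after length correction, length and GC correction, or in the authors' normalized counts, where Mt1 turned to -0.06, and 2 receptor and partner genes were higher after either length correction. A minimum of 10 counts in every library removed Hp, Lrg1, Lbp, Serpina3n and Lcn2, so that 2 of the 10 and 2 receptor and partner genes were lower, and the median of the 5 genes left was 0.56. DESeq2 gave 3 higher signalling genes, 9 lower receptor and partner genes and 1 higher acute phase gene. Without a filter, 9 receptor and partner genes were lower and 1 acute phase gene was higher. The genotypes share replicate numbers, but nothing says that these mark shared animals. Correlations of same-numbered deviations from the group means were -0.001, -0.064 and 0.082, and not every library correlated best with its own number. With the replicate block 4668 genes were called, and 6 of the 10 genes were lower and 3 higher, as without it.

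Leaving out 1 library gave 3853 to 4595 called genes, 6 to 7 of the 10 genes lower, 1 (without wt replicate 2) to 3 higher and a median of -3 to -2.31, which was -2.31 without replicate 3 labelled Tks5+/-. Ftl1 kept its call without 4 of 6 libraries and Mt1 without 3 of 6, and Mt2 without all 6. The lists had 0 to 1 higher acute phase genes, 3 to 5 lower iron handling genes, 3 to 6 lower zinc genes, 4 to 7 higher signalling genes and 5 to 8 lower receptor and partner genes. Where no construction shows it, the cause was not tested. Depth limits Lrg1, Lcn2 and Lbp, whose libraries labelled Tks5+/- held 0 to 5 counts each.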
